A study of Homo sapiens with 15 samples.

Results

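Cultures labelled as the liver cancer line HepG2 and given fatty acids together with 100 µM cyanidin-3-rutinoside (C3R), a red anthocyanin of berries, were compared with cultures given the fatty acids alone. The comparison was chosen by treatment and uses 6 of the 15 sequenced cultures: FCH replicates 1 to 3, which received 500 µM free fatty acids plus 100 µM C3R, and FFA replicates 1 to 3, which received 500 µM free fatty acids and no C3R. The other 9 cultures were blank controls without either agent (NC), and cultures given 500 µM fatty acids with 25 µM (FCL) or 50 µM C3R (FCM), 3 each. All carry the same line in the labels. The fatty acids were shared by every group except NC, and no culture received C3R without fatty acids. The labels call the replicates biological without saying how they were kept apart, and the p-values rest on the spread among these cultures alone. The question, per the series' design text, was by which genes C3R acts on lipid in this fat-loaded cell model.

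Hepatocytes make cholesterol from acetyl-CoA by the mevalonate arm, which ends at farnesyl diphosphate, and the sterol arm, which starts at squalene. The membrane-bound factors SREBP1 and SREBP2 switch on these genes when sterols are low, and INSIG proteins hold them back when sterols are ample. The receptors LXR alpha (NR1H3) and LXR beta (NR1H2) sense oxysterols, and NRF2 drives detoxification genes under oxidative or electrophilic stress.

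Expression was read as TPM, a level per transcript length relative to the rest of the library. Such values hide how deeply a library was sequenced, so depth is unknown and counting error cannot be given. A total of 12950 genes reached 1 TPM in at least 3 of the 15 libraries and were tested on log2(TPM + 1), on which changes of genes with low TPM come out too small. In FCH between 11724 and 11832 genes per library reached 1 TPM, and in FFA between 11787 and 12053. The genes of the mitochondrial genome held 9.29% to 10.8% of the TPM in FCH and 7.33% to 10.3% in FFA, which overlapped (two-sided exact permutation p = 0.3, where 0.1 is the smallest that 3 against 3 allows). The values of FCH replicate 3 carried an adjustment toward FCH replicates 1 and 2 in 12775 genes of the table and kept 41.6% of their deviation, so the FCH spread below can be too small. Values with the adjustment undone are given where they end a call.

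The labels name hepatocyte and HepG2, but the defining genes of these cells were near the bottom of the scale in all 15 libraries. ALB, which encodes albumin, lay between 0.0947 and 1.67 TPM, AFP (alpha-fetoprotein) was at most 0.13 TPM, TTR at most 0.32, APOB at most 0.09 and HNF4A at most 0.64 TPM. APOA1 at 6.18 to 14.7 TPM and SERPINA1 at 6.95 to 14.2 TPM were detected. The summed level of 14 hepatocyte and hepatoma markers was 32.4 to 33.6 TPM in FCH and 33.5 to 50.7 TPM in FFA. Of 6 bile duct markers, KRT7, a keratin also of other simple epithelia, was at 1626 to 2781 TPM, while KRT19 was at most 1.6, SPP1 at most 3.84, EPCAM at most 0.4, SOX9 at most 0.38 and CFTR at most 0.04 TPM. The cell line in the labels is therefore not borne out by most of these genes, and what the cells are was not tested. Liver-specific genes were mostly too low to test.

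Against fatty acids alone, 100 µM C3R gave few changes that passed the test, and they ran in both directions. Of the 12950 genes, 25 were called at an adjusted p under 0.05 (0.193%), 14 higher (0.108%) and 11 lower (0.0849%) in FCH (limma with Benjamini-Hochberg adjustment). Without adjustment, 1946 genes had p under 0.05, and more of them were lower (1395, 10.8% of those tested) than higher (551, 4.25%). In 2897 genes (22.4%) every FCH library lay below every FFA library, and in 1421 genes (11%) every FCH library lay above. The log2 change had a median of -0.07 over all tested genes, with a median SE of 0.20. All 25 called genes had FCH and FFA values that did not overlap. They comprise 14 protein genes, 4 pseudogenes and 7 noncoding or uncharacterized genes.

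**Figure D1:**
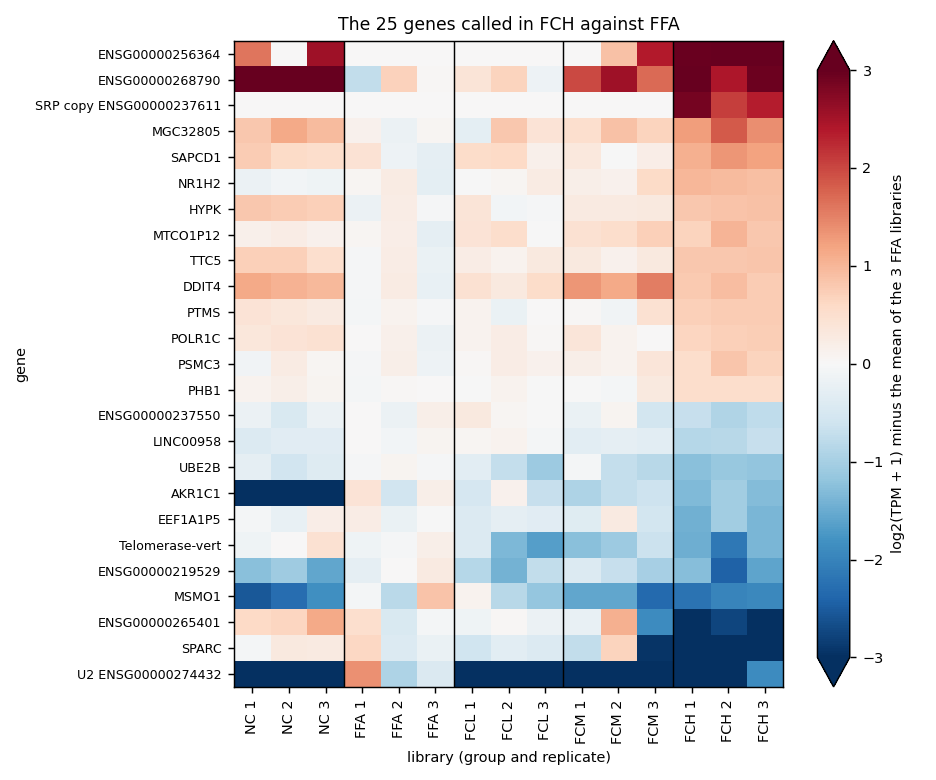
Each row is 1 of the 25 called genes, and each column is 1 of the 15 libraries. Colour gives log2(TPM + 1) minus the mean of the 3 FFA libraries, with blue lower, red higher and values beyond 3 drawn at the end colours. The 3 FCH columns are red in the top 14 rows and blue in the bottom 11, and FCM replicate 3 shares the FCH colour most clearly in ENSG00000256364, ENSG00000265401 and SPARC.

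The number of called genes rested on single libraries. It was 3 without FFA replicate 1, 2 without FFA replicate 3, and 3, 2 and 3 without FCH replicates 1, 2 and 3 in turn, while it was 78 without FFA replicate 2 and 86 without FCL replicate 2. Without FCM replicate 3, 171 genes were called, 52 higher and 119 lower, and the 25 were all among them. The signal recognition particle RNA copy and ENSG00000268790 were called in each of the 15 fits that left out 1 library. The RNA copy met the filter through the FCH libraries alone and was at 0 in every other library. Leaving out a library of another group therefore could not change its log2 change, and these fits are no test of it.

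Among the called protein genes of known function, the sterol receptor gene NR1H2 had the largest rise. NR1H2, which encodes LXR beta, stood at 178, 172 and 166 TPM in FCH replicates 1 to 3 and at 91.3, 104 and 72.2 TPM in FFA. No FCH library came near the FFA range, and the mean was 1.92-fold higher (log2 change 0.95, SE 0.14, adjusted p = 0.0202 by limma). NC lay at 78.5, 83.6 and 81 TPM, so fatty acids alone left the gene near its control level (log2 change 0.12, adjusted p = 0.675), and FCH exceeded NC too (1.07, adjusted p = 0.000367). Of 12 tested genes of the LXR list, NR1H2 was the 1 called, against 0.193% of all tested genes. At an unadjusted p under 0.05, 2 of the list were higher and 1 lower, against 4.25% and 10.8% of all tested genes. SCD, also on this list and described below, was lower in FCH without being called (-0.85, adjusted p = 0.0645 by limma). NR1H3, which encodes the sister receptor LXR alpha, had 65.1 to 72.6 TPM in FCH and 73 to 80.8 TPM in FFA and was not called (-0.14, adjusted p = 0.589). SREBF1, a textbook LXR target, overlapped between the groups (0.05, adjusted p = 0.937), and its sign changed under 6 alternative settings. APOE, another target, had 21.8 to 23.7 TPM in FCH against 15 to 21.2 TPM in FFA (0.38, adjusted p = 0.31), and the cholesterol exporter ABCA1 was at most 0.13 TPM in every library and was not tested.

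**Figure D2:**
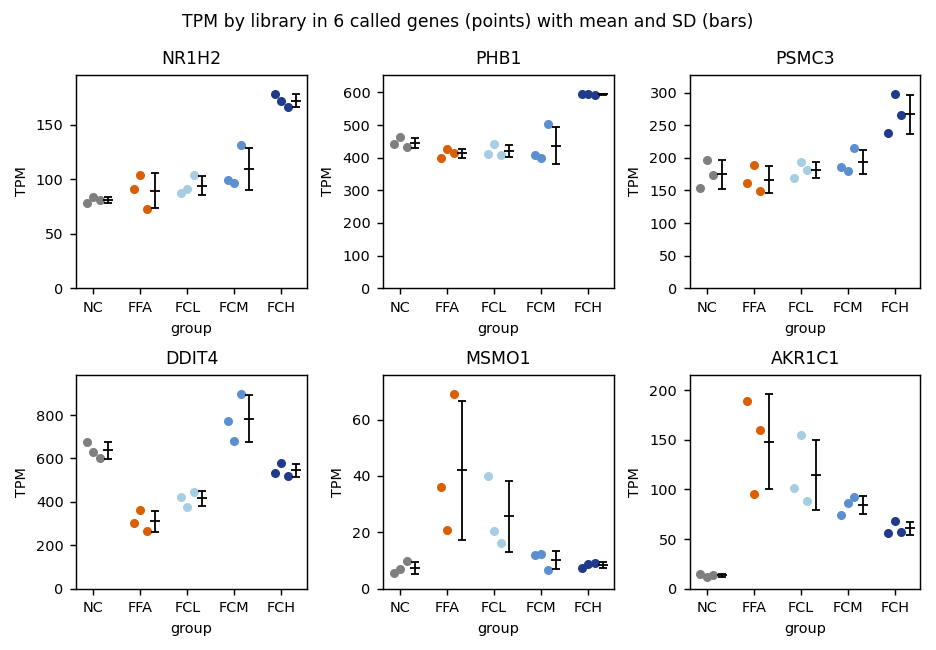
TPM in 6 called genes by group. Points are the 3 libraries of a group, and the bar beside them is the mean with the SD. In NR1H2, PHB1 and PSMC3 the FCH points lie above all other groups, in DDIT4 FCH lies below FCM, and in MSMO1 the FCH points (7.33 to 9.05 TPM) lie within the NC range (5.56 to 9.81 TPM), while in AKR1C1 they lie between NC and FFA.

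PHB1 encodes prohibitin, a scaffold of the inner mitochondrial membrane. It was at 595, 595 and 593 TPM in FCH and at 399, 426 and 414 TPM in FFA, a rise of 0.53 (SE 0.09, adjusted p = 0.0395 by limma). PSMC3, an ATPase subunit of the proteasome's regulatory cap, was at 238, 298 and 265 TPM in FCH against 162, 189 and 149 TPM in FFA (0.68, SE 0.13, adjusted p = 0.0467). In both genes FCH also exceeded all 3 NC libraries, at adjusted p = 0.0208 for PHB1 and 0.0113 for PSMC3 against NC. PTMS encodes parathymosin, a small acidic nuclear protein, and rose from 303, 341 and 307 TPM to 520.3, 534 and 535 TPM (0.74, SE 0.13, adjusted p = 0.0279). FCM replicate 3 held 436 TPM of PTMS and 502 TPM of PHB1, above the other FCM libraries (at most 324 and 409.5 TPM). With the adjustment of FCH replicate 3 undone, PSMC3 was no longer called (adjusted p = 0.0572).

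A further set of called genes was lower in FFA than in NC and higher again in FCH. DDIT4, an inhibitor of the growth kinase complex mTORC1, had 678, 631 and 602 TPM in NC, 302, 362 and 265 TPM in FFA and 534, 579.8 and 519.9 TPM in FCH. FFA was below every library of both other groups, and FCH rose by 0.82 over FFA (SE 0.13, adjusted p = 0.0202 by limma) but was below FCM, at 774, 682 and 896 TPM (-0.52, adjusted p = 0.154). TTC5, a cofactor in p53 responses and tubulin mRNA decay, had 17.5, 21.1 and 15.5 TPM in FFA, and FCH at 31.9, 32.2 and 32.6 TPM exceeded the NC libraries (26 to 29.9 TPM) as well (0.82 over FFA, adjusted p = 0.0202). POLR1C, a subunit shared by RNA polymerases I and III, rose from 96, 107 and 84.9 TPM in FFA to 151, 158 and 159 TPM in FCH, with NC at 122 to 132 TPM (0.70, SE 0.11, adjusted p = 0.0202). HYPK, a ribosome-associated regulator of N-terminal acetylation, was at 26.6, 27.3 and 27.8 TPM in FCH, close to the NC libraries at 24.7 to 26.6 TPM, against 12.8, 17.2 and 14.3 TPM in FFA (0.85, adjusted p = 0.0202). HYPK overlaps a readthrough transcript, so the division of reads there is uncertain. Of the mTORC1 list, DDIT4 was the 1 of 16 tested members called, against 0.193% of all tested genes. At an unadjusted p under 0.05, 1 member was higher and 3 were lower, against 4.25% and 10.8% of all tested genes. The list's median was -0.04. RHEB, the activator of mTORC1, had 58.9 to 60.6 TPM in FCH and 76 to 99.3 TPM in FFA (-0.58, adjusted p = 0.109).

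MSMO1 was the 1 called gene of cholesterol synthesis and was lower in FCH. It encodes the monooxygenase that strips methyl groups from sterols on the way from lanosterol to cholesterol. MSMO1 was at 35.9, 20.9 and 69 TPM in FFA and at 7.33, 8.79 and 9.05 TPM in FCH. The FCH libraries lay below all FFA libraries and within the NC range of 5.56 to 9.81 TPM. The mean in FFA was 5-fold that in FCH (log2 change -2.04, SE 0.38, adjusted p = 0.0467 by limma). FCL, at 40.1, 20.6 and 16.2 TPM, overlapped FFA, and FCM, at 12, 12.1 and 6.59 TPM, lay below every FFA library and overlapped FCH. With the adjustment of FCH replicate 3 undone, that library held 12 TPM, and MSMO1 was not called (-1.92, adjusted p = 0.0851).

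Of the other cholesterol synthesis genes none was called. In the sterol arm 1 of 12 tested genes was called, against 0.193% of all tested genes. In that arm 5 had an unadjusted p under 0.05, all lower (10.8% of all tested genes were lower at that p). The median log2 change was -0.33, against -0.07 over all tested genes. In the mevalonate arm none of 9 was called, 5 were lower and 1 higher at an unadjusted p under 0.05, and the median was -0.34. The log2 change was below 0 in 10 of the 12 and 7 of the 9, and in 7791 of all 12950 tested genes. With a term for libraries 12 to 15, described below, no member of either arm was called. IDI1, which isomerizes isopentenyl diphosphate, had 45.2, 28.9 and 77.5 TPM in FFA and 12.6, 13.7 and 14.4 TPM in FCH (-1.72, adjusted p = 0.0645 by limma). SQLE, the squalene epoxidase, had 28, 18.9 and 32 TPM in FFA and 11.5, 11 and 13.9 TPM in FCH (-1.03, adjusted p = 0.0536). These groups did not overlap, and FFA replicate 2 was the lowest and FFA replicate 3 the highest FFA library in each of MSMO1, IDI1 and SQLE. CYP51A1, the lanosterol demethylase, stood at -0.96 and HSD17B7, a reductase of the same arm, at -0.71 (adjusted p = 0.0645 each). PMVK, the phosphomevalonate kinase, named after its value was seen, was the 1 gene higher at an unadjusted p under 0.05, at 0.32 (adjusted p = 0.265).

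Of 13 tested genes for sterol control and LDL uptake, none was called, and the median was -0.13. At an unadjusted p under 0.05, 4 were lower and none higher, against 10.8% and 4.25% of all tested genes. INSIG1 had 97, 61.2 and 155 TPM in FFA, 39.7, 46.5 and 41.8 TPM in FCH and 17 to 26.7 TPM in NC (-1.18, adjusted p = 0.0982 by limma). FCH lay below FFA and above NC without overlap. SREBF2, which encodes SREBP2, overlapped between FFA and FCH (-0.22, adjusted p = 0.576).

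**Figure D3:**
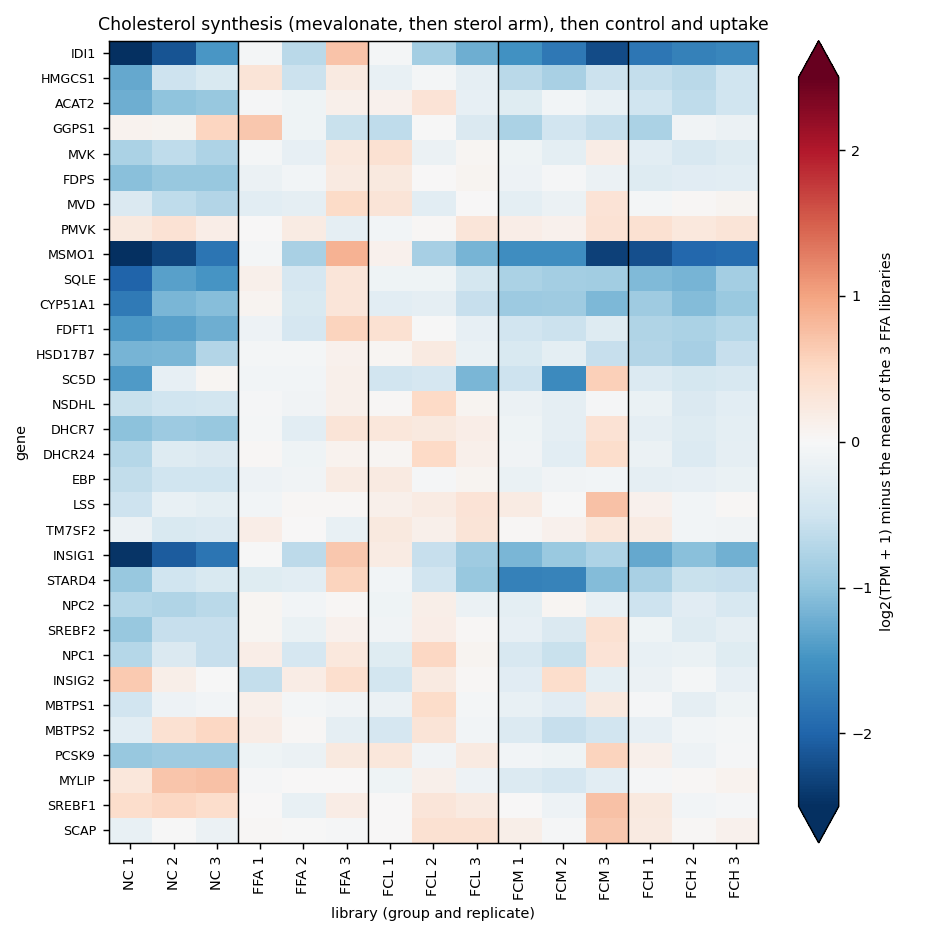
Rows are tested genes of the mevalonate arm (IDI1 to PMVK), the sterol arm (MSMO1 to TM7SF2) and sterol control and LDL uptake (INSIG1 to SCAP), and columns are the 15 libraries. Colour gives log2(TPM + 1) minus the mean of the 3 FFA libraries. The deepest blue in FCH is in MSMO1, IDI1, INSIG1 and SQLE, the genes that are also blue in NC, while SREBF1, LSS and MVD stay near white.

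The promoters of 4 of these genes are shown, because MSMO1 was the called member and CYP51A1, IDI1 and INSIG1 were its nearest neighbours in size of change with a sequence in the table. Each runs from 250 bases before to 50 bases after the gene's start, is taken from RefSeq (GRCh38.p14) and is given 5′ to 3′ on the gene's strand, with CCAAT or its reverse complement in capitals.
MSMO1: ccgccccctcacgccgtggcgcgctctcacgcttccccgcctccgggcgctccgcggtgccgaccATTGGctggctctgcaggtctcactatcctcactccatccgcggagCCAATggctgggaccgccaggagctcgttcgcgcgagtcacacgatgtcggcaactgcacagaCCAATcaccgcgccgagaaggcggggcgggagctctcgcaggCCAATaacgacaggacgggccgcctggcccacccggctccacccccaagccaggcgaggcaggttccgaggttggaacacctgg
CYP51A1: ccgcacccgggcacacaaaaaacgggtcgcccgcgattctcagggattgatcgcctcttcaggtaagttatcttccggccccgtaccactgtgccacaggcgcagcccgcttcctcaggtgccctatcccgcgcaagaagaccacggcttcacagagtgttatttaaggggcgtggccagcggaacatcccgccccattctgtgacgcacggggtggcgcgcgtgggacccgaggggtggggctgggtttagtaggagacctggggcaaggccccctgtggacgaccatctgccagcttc
IDI1: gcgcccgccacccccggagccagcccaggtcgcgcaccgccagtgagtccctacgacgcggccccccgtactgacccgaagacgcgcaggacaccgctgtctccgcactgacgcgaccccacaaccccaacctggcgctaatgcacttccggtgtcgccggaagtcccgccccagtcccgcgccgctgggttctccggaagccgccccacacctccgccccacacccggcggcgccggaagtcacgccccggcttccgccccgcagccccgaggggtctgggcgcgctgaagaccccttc
INSIG1: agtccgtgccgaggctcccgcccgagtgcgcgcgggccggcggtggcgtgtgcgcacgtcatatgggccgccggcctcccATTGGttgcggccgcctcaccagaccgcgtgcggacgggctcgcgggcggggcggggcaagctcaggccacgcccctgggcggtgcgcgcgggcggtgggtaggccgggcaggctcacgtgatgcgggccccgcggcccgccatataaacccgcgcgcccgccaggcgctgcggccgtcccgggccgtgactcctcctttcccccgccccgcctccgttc

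The windows are chr4:165327419-165327718 (plus strand) for MSMO1, chr7:92134428-92134727 (minus strand) for CYP51A1, chr10:1056655-1056954 (minus strand) for IDI1 and chr7:155297628-155297927 (plus strand) for INSIG1. The MSMO1 window held 4 CCAAT matches and the INSIG1 window 1, while those of CYP51A1 and IDI1 held none. On either strand, CCAAT occurred in 17 of the 27 cholesterol genes with a promoter in the table (63%), against 37.2% of the 9412 promoters of tested genes. It also occurred in 6 of 11 called genes with a promoter (54.5%) and in 9 of 21 of the NRF2 list below (42.9%). The sterol regulatory element was searched as TCACNCCAC and occurred in 1 of the 27, SREBF2 (3.7%, against 1.06%). CCAAT was added to the search after TCACNCCAC gave few matches, and a match is a stretch of letters, not a measured binding site.

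AKR1C1, an aldo-keto reductase that clears steroids and lipid aldehydes and is a textbook NRF2 target, was the other called gene of a metabolic list. It was at 189, 95.5 and 160.2 TPM in FFA and at 56.3, 68.3 and 57.5 TPM in FCH (log2 change -1.22, SE 0.23, limma adjusted p = 0.0467). The groups did not overlap, FFA replicate 2 was the nearest to FCH, and FCH remained far above NC, at 11.4 to 14.8 TPM (2.12 over NC, adjusted p = 7.15e-05). FCL (88 to 155 TPM) overlapped FFA, and FCM (74.5 to 92.5 TPM) lay between FFA and FCH. AKR1C2 had 217 to 272 TPM in FFA and 125 to 143 TPM in FCH (-0.88, adjusted p = 0.0982), and AKR1C3 had 281 to 349 TPM and 170.1 to 197 TPM (-0.80, adjusted p = 0.0982). The 3 genes are similar in sequence, which leaves uncertain how reads were split among them, and with a term for libraries 12 to 15 AKR1C2 changed sign (0.13).

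Of 28 tested NRF2 and detoxification genes, AKR1C1 was the 1 called, against 0.193% of all tested genes. In the list 15 were lower and none higher at an unadjusted p under 0.05. Over all tested genes, 10.8% were lower and 4.25% higher at that p. The list's median was -0.36, and in 18 of the 28 every FCH library lay below every FFA library, against 22.4% of all tested genes. NQO1, a quinone reductase, had 464, 399.6 and 443 TPM in FFA and 343, 286 and 310.5 TPM in FCH (-0.48, adjusted p = 0.0901 by limma). HMOX1, which degrades heme, had 86.3, 56 and 104 TPM in FFA and 48.3, 49.9 and 45.5 TPM in FCH (-0.72, adjusted p = 0.109). In both, FCH lay between NC (at most 258 and 23.5 TPM) and FFA. FTL, the ferritin light chain, had 9532 to 13836 TPM in FFA and 7617 to 8157 TPM in FCH (-0.53, adjusted p = 0.118). NFE2L2, which encodes NRF2 itself, had 5.52 to 8.53 TPM and 4.12 to 4.77 TPM (-0.63, adjusted p = 0.31). The core of the antioxidant response element, searched as TGACNNNGC, occurred in 4 of the 21 list members with a promoter in the table (19%), against 15.7% of the promoters of tested genes. It was absent from the windows of AKR1C1, AKR1C2, AKR1C3 and NQO1 and from all 11 called genes with a promoter. Of 9 tested genes of the AHR pathway none was called, 5 were lower at an unadjusted p under 0.05 and the median was -0.40. CYP1A1, the pathway's classical target, had 4.03, 2.73 and 5.12 TPM in FFA and 1.95, 2.13 and 1.94 TPM in FCH (-0.69, adjusted p = 0.143).

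UBE2B, a ubiquitin-conjugating enzyme of DNA damage tolerance, fell from 24.6, 26.7 and 24.6 TPM in FFA to 9.95, 10.9 and 10.5 TPM in FCH, a 2.42-fold difference (log2 change -1.20, SE 0.20, adjusted p = 0.0202 by limma). FCH was also below all NC libraries, at 16.7 to 20.7 TPM (adjusted p = 0.0348 against NC). LINC00958, a long noncoding RNA, was at 6.91, 6.36 and 7.21 TPM in FFA and at 3.34, 3.41 and 3.85 TPM in FCH (-0.79, SE 0.13, adjusted p = 0.0202), but at adjusted p = 0.0717 with the adjustment of FCH replicate 3 undone. The FCL libraries of LINC00958 (6.46 to 7.42 TPM) lay with FFA and the FCM libraries (5.23 to 5.5 TPM) between.

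SPARC, a secreted matrix glycoprotein, showed the largest fall among called protein genes. It was at 18, 8.26 and 9.78 TPM in FFA and at 0.194, 0.0437 and 0 TPM in FCH (log2 change -3.52, SE 0.59, adjusted p = 0.0202 by limma). Of the other libraries, FCM replicate 3 was also low, at 0.614 TPM, and the rest lay between 6.47 and 18.8 TPM. FCM replicate 3 and the 3 FCH libraries are those the labels number 12 to 15. The sum over a list of 24 neuron and glia genes, chosen after their values were seen, moved with the same libraries. This sum was 2.46 to 4.27 TPM in FCH, 4.58 TPM in FCM replicate 3 and 33.7 to 108 TPM in libraries 1 to 11. In 16 of the 24 genes all of libraries 12 to 15 lay below all of libraries 1 to 11. Of the 24, 10 were at 0 in all of libraries 12 to 15 but not elsewhere, and a further 2 were at 0 in every library. In FFA the sum was 33.7 to 62.4 TPM. Not every member showed the pattern. RBFOX3 was not lower, at 0.25, 0.13 and 0.08 TPM in FFA and 0.39, 0.36 and 0.21 TPM in FCH. GFAP was at 0.712 TPM in FCM replicate 3, within its range in libraries 1 to 11 (0.032 to 1.31 TPM). Since the list was chosen with its values known, the pattern is a description and was not tested. SNAP25, a synaptic vesicle fusion protein, had 2.53, 2.16 and 2.65 TPM in FFA and 0.748, 0.538 and 0.813 TPM in FCH. MBP, a myelin protein gene, had 14.5, 6.23 and 10.6 TPM in FFA, 1.92, 1.43 and 1.15 TPM in FCH and 2.56 TPM in FCM replicate 3. Of the 24 genes 12 were tested and none was called. In bulk RNA, fewer cells of a type and less RNA per cell cannot be told apart. Whether the neuron and glia transcripts came from cells of these cultures at all was not tested.

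**Figure D4:**
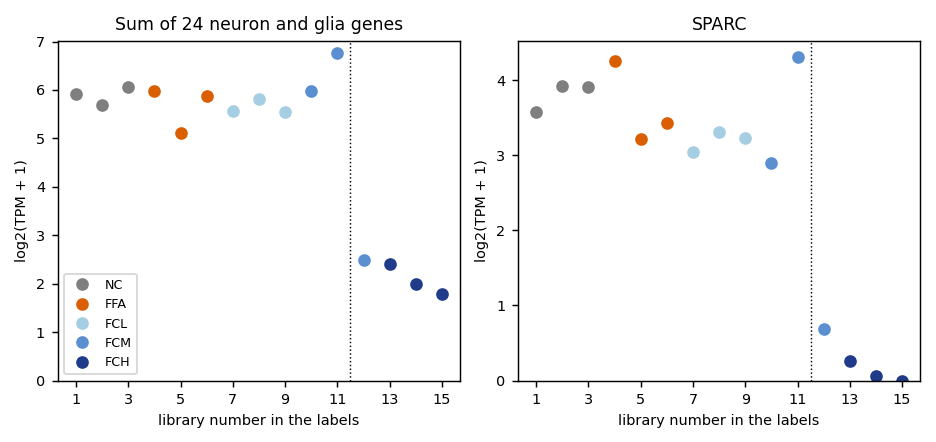
The summed TPM of 24 neuron and glia genes (left) and the TPM of SPARC (right), both as log2(TPM + 1), by the library number in the labels. Each point is 1 library, coloured by group, and the dotted line separates libraries 1 to 11 from 12 to 15. FCM replicate 3 (library 12) lies with the 3 FCH libraries in both, apart from the other FCM libraries.

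Because all FCH libraries are among libraries 12 to 15, C3R at 100 µM and whatever these libraries share cannot be told apart by FCH and FFA alone. Only FCM spans both sides, by FCM replicates 1 and 2 against FCM replicate 3, and a term for libraries 12 to 15 rests on that contrast. With the term 4 genes were called, 1 of them among the 25, the signal recognition particle RNA copy (2.44, adjusted p = 0.0195 by limma), and the other 24 were not called. That copy was at 0 in every FCM library, so the term could not change its log2 change. The median over all genes was then -0.27. SPARC went to -0.61 (adjusted p = 0.581), ENSG00000265401 to -0.82 (0.43), ENSG00000256364 to 1.36 (0.366), PTMS to 0.24 (0.422) and PHB1 to 0.21 (0.335). NR1H2 was at 0.54 (adjusted p = 0.176), DDIT4 at 0.52 (0.172), PSMC3 at 0.45 (0.248) and MSMO1 at -1.26 (0.302). ENSG00000268790 at 3.36 (adjusted p = 0.059), POLR1C at 0.94 (0.0608), TTC5 at 0.74 (0.108), HYPK at 0.81 (0.112), UBE2B at -0.76 (0.229), LINC00958 at -0.78 (0.106) and AKR1C1 at -1.42 (0.109) also missed the threshold.

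Most of the remaining called genes were short, repeated or poorly characterized. For the RNA copies and the pseudogenes, near-identical copies make the values uncertain. For the others this was not examined. ENSG00000237611, which matches the RNA of the signal recognition particle, was at 6.35, 3.22 and 4.12 TPM in FCH and listed at 0 in the other 12 libraries (adjusted p = 2.01e-05 by limma). It met the filter through the FCH libraries alone, so this p-value is no independent test of it. ENSG00000268790, a protein gene without a symbol, was at 13.1, 8.22 and 12 TPM in FCH, 0.0232, 1.77 and 0.743 TPM in FFA, 14 to 21.5 TPM in NC and 4.56 to 8.96 TPM in FCM (log2 change 2.81, adjusted p = 0.00285). Fatty acids alone lowered it (-3.49 against NC, adjusted p = 1.65e-05), and its FCM and FCH libraries overlapped. ENSG00000256364, antisense to MLEC, was listed at 0 in all FFA and FCL libraries and at 6.82, 10.4 and 9.91 TPM in FCH. A U2 spliceosomal RNA copy was at 93.4, 18.3 and 26 TPM in FFA and, outside FFA, above 0 only in FCH replicate 3, at 8.87 TPM. Telomerase-vert, ENSG00000265401, MGC32805, SAPCD1 and MTCO1P12 had log2 changes of -1.66, -3.14, 1.51, 1.19 and 0.84, and SAPCD1 overlaps a readthrough transcript. The pseudogenes EEF1A1P5 (-1.29), ENSG00000219529 of RPS20 (-1.77) and ENSG00000237550 of RPL9 (-0.78) were lower. With the adjustment of FCH replicate 3 undone, Telomerase-vert, MTCO1P12 and ENSG00000237550 were not called (adjusted p = 0.109, 0.069 and 0.0717 by limma). The 40 tested cytosolic ribosomal protein genes had none called and none at an unadjusted p under 0.05, with a median of -0.02.

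Genes of fatty acid synthesis, uptake and oxidation had no called member in FCH against FFA. SCD, the stearoyl-CoA desaturase, had 618, 532 and 703 TPM in FFA, 319, 353 and 346 TPM in FCH and 252 to 398 TPM in NC (log2 change -0.85, limma adjusted p = 0.0645). The FCH values lay within the NC range and below all FFA values. ELOVL5, a fatty acid elongase, had 34.6 to 43.4 TPM in FFA and 23.2 to 23.7 TPM in FCH (-0.69, adjusted p = 0.0982). Of 12 tested desaturases and elongases 2 were lower at an unadjusted p under 0.05, of 9 lipogenesis genes 3 and of 11 uptake genes 2, with 1 uptake gene higher. Over all tested genes, 10.8% were lower and 4.25% higher at that p. FASN, the fatty acid synthase, overlapped between the groups at 341 to 515 TPM in FCH and 458 to 515 TPM in FFA (-0.21, adjusted p = 0.732), and ACACA was at -0.24 (0.446).

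PPAR targets, which fatty acids switch on directly, had a median change close to that of all genes. Of 21 tested, none was called, 6 were lower at an unadjusted p under 0.05, and the median was -0.04. At that p, 10.8% of all tested genes were lower and 4.25% higher. ANGPTL4, a lipoprotein lipase inhibitor, was at 821, 884 and 769 TPM in FCH and 856, 649.7 and 779.9 TPM in FFA, against 80 to 104 TPM in NC (0.12, adjusted p = 0.759 by limma), and it was at -0.38 with the term for libraries 12 to 15. CPT1A, which loads fatty acids onto carnitine for entry into mitochondria, was at 54.9 to 61.1 TPM in FCH and 60.3 to 67.3 TPM in FFA (-0.12, adjusted p = 0.774). PDK4, which restrains glucose oxidation, was at 49, 68.4 and 62.1 TPM in FCH and 134, 71.8 and 163 TPM in FFA (-0.96, adjusted p = 0.116). Of 20 oxidation and ketogenesis genes 6 were lower and 1 higher at an unadjusted p under 0.05, including the trifunctional protein subunits HADHA (-0.40, adjusted p = 0.187) and HADHB (-0.51, 0.113). The droplet coat gene PLIN2 was at 1.59 to 2.46 TPM in FCH and 1.57 to 2.45 TPM in FFA (0.10, adjusted p = 0.886).

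**Figure D5:**
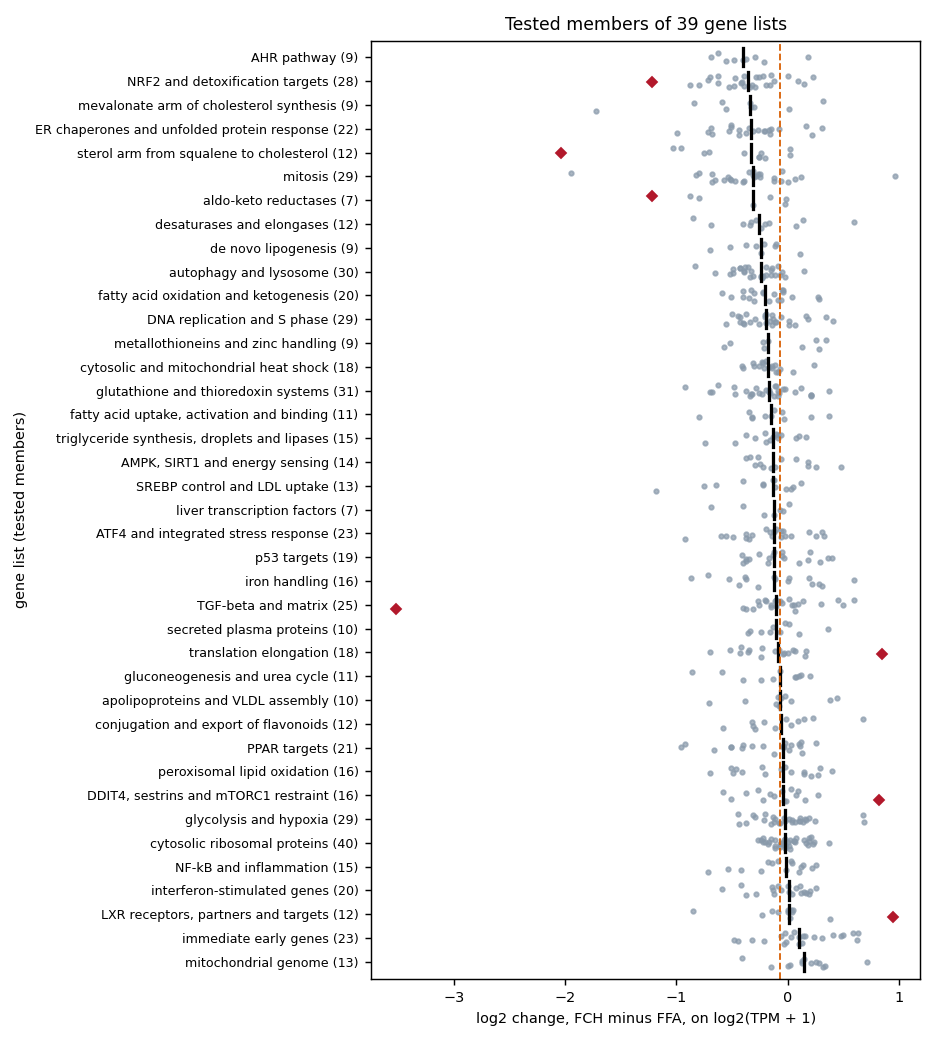
Each row is 1 of 39 gene lists with its number of tested members, and each point is a tested member's log2 change of FCH against FFA. Black bars mark list medians, the dashed line marks the median of all tested genes (-0.07), and red diamonds mark called genes. List medians run from -0.40 (AHR pathway) to 0.15 (mitochondrial genome), and the 7 diamonds are NR1H2, DDIT4, MSMO1, SPARC and HYPK once each and AKR1C1 in 2 lists.

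The ER chaperone, mitosis and autophagy lists had no called member, and in each more genes were lower than higher. The same held over all tested genes, with 10.8% lower and 4.25% higher at an unadjusted p under 0.05. Of 22 tested ER chaperone genes 10 were lower and none higher at an unadjusted p under 0.05 (median -0.33). XBP1, a transcription factor of the unfolded protein response, had 171, 139 and 218 TPM in FFA and 116, 99.2 and 106 TPM in FCH (-0.69, adjusted p = 0.075 by limma). HSPA5, the chaperone BiP, had 331, 201 and 585 TPM in FFA and 180.2, 160.4 and 170.4 TPM in FCH (-0.99, adjusted p = 0.138), with FFA replicate 3 far above the other FFA libraries. Of 29 tested mitosis genes 11 were lower and 1 higher (median -0.31). AURKA, a spindle kinase, had 90.1, 61.3 and 95.2 TPM in FFA and 46.9, 41 and 50 TPM in FCH (-0.80, adjusted p = 0.0645). BUB1B, a checkpoint kinase of the same list that was named after its value was seen, had 9.39, 8.25 and 5.92 TPM in FFA and 16.6, 15.8 and 15.8 TPM in FCH (0.97, adjusted p = 0.116). Of 30 tested autophagy and lysosome genes 11 were lower and none higher (median -0.24). LIPA, the lysosomal acid lipase that releases cholesterol and fatty acids from lipoproteins, had 36.1 to 39.1 TPM in FFA and 19.5 to 21.5 TPM in FCH (-0.83, adjusted p = 0.0783). With each library's trend over GC content and length taken out (described below), the ER chaperone, mitosis and autophagy medians were -0.19, -0.16 and -0.2. The all-gene median was then 0.

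Immediate early genes are induced within minutes of a signal, and many encode transcription factors. None of 23 was called, and the median was 0.10. At an unadjusted p under 0.05, 4 were higher and 2 lower, against 4.25% and 10.8% of all tested genes. In 8 of the 23 every FCH library lay above every FFA library, against 11% of all tested genes. IER2 had 909.6, 733 and 789 TPM in FCH and 524, 587 and 469 TPM in FFA (0.62, adjusted p = 0.072 by limma). NR4A1, an orphan nuclear receptor, had 883, 641 and 734 TPM in FCH and 510.1, 489 and 448 TPM in FFA (0.63, adjusted p = 0.144). The glucose transporter SLC2A1 had 328, 403 and 309.9 TPM in FCH and 205, 227 and 214 TPM in FFA (0.68, adjusted p = 0.075). With the term for libraries 12 to 15 the median of the immediate early list was -0.35, at an all-gene median of -0.27. Of the 13 genes of the mitochondrial genome, MT-ATP8 had 28185, 27709 and 30053 TPM in FCH and 17005, 23522 and 13320.5 TPM in FFA (0.71, adjusted p = 0.145). The other 12 all had an unadjusted p over 0.05. MT-ATP8 overlaps MT-ATP6 in the genome, so the division of reads between them is uncertain.

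Between doses, few genes passed the test against the lower C3R groups, which share the FCH libraries with the comparison above. Against FCM, 2 of 12950 genes were called (0.0154%), the signal recognition particle RNA copy and ADAM10, and against FCL 10 (0.0772%), with 5 in each direction (0.0386%). The RNA copy, also called against FCL, was at 0 outside FCH. Its values against FCM and FCL therefore repeat those against FFA and are no test of dose. Over all tested genes 5% were called in FCH against NC (3.02% higher and 1.98% lower) and 7.37% in FFA against NC (5.47% higher and 1.91% lower). These contrasts share the FCH or the FFA libraries with FCH against FFA, so values of the called genes in them are a description. NR1H2 stood at 94.1 ± 8.88 TPM in FCL, 109 ± 18.9 in FCM and 172 ± 6.01 in FCH (SD, n = 3 each), with adjusted p = 0.0363 by limma against FCL and 0.0884 against FCM. PTMS, at 312 ± 31.5, 350.4 ± 75.9 and 529.8 ± 8.22 TPM, had adjusted p = 0.0363 and 0.0884. In both genes only FCM replicate 3 exceeded the FCL range. It held 131 TPM of NR1H2, against 99.5 and 96.3 TPM in the other FCM libraries and 87.1 to 104 TPM in FCL. For PTMS it held 436 TPM, against 324 and 292 TPM and 277 to 338 TPM. Whether dose sets the higher FCM means was not tested. MSMO1 stood at 25.6 ± 12.7, 10.2 ± 3.15 and 8.39 ± 0.928 TPM and did not pass against either dose (0.135 and 0.874). All FCM libraries of MSMO1 (6.59 to 12.1 TPM) lay below the FCL libraries (16.2 to 40.1 TPM).

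The log2 change was related to base composition across genes. Over the 12485 tested genes with a sequence (96.4%), the log2 change of FCH against FFA correlated with GC content at a Spearman coefficient of 0.381, a description over genes that share the same 6 libraries. Genes higher at an unadjusted p under 0.05 had a median GC content of 57.5%, those lower had 44.8%, and all tested genes had 50.1%. Once each library's trend over GC content and length was taken out, 186 genes passed, of which 99 were higher and 87 lower in FCH, and 24 of the 25 were among them, UBE2B being the exception (-0.96, adjusted p = 0.054 by limma). In that fit 3 sterol arm genes were called, MSMO1 (-1.77, adjusted p = 0.0413), SQLE (-0.87, 0.032) and CYP51A1 (-0.75, 0.0411), and SCD was called at -0.72 (0.0132). Whether base composition or C3R sets the remaining calls was not tested.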

How the data were processed

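RNA of 15 cultures labelled as HepG2, 3 per group, was poly(A)-selected and sequenced, per the labels' protocols. Reads were aligned with HiSat2 and quantified with RSEM, per the series' design text. For versions, annotation release and strand setting: not given in the sources used here. The authors deposited TPM, a length-scaled relative transcript level, for 63241 genes, without counts, so the depth per library is unknown.

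From these values, log2(TPM + 1) of the 12950 genes with at least 1 TPM in at least 3 libraries was fitted with a mean per group over all 15 libraries in limma 3.58.1 under R 4.3.3, with variances moderated along a trend over mean level, with Benjamini-Hochberg adjustment over all tested genes and calls at an adjusted p under 0.05. The steps were checked on simulated data. In 12775 genes, all libraries other than FCH replicate 3 shared an offset per gene, and FCH replicate 3 held a different shift. Undoing these shifts made 100% of values whole multiples of 0.01 TPM, to within 0.0001 TPM. Adding them back differed by at most 0.00975 TPM. No label mentions this adjustment.

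Named genes are the called genes, up to 4 tested members of each list with the smallest unadjusted p, and a lipid panel, of which some are not reported here. The comparison and lists were chosen with earlier results of these data known. Alternatives covered the pseudocount, filter, scaling, weights, replicate block, samples fitted, left-out libraries, a term for libraries 12 to 15, base composition and the adjustment. Promoters came from RefSeq (GRCh38.p14).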

Additional observations from a re-analysis of the deposited data

Results flagged for a closer look

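Some genes differed between FCH and a lower C3R dose by a test of that difference (limma, adjusted p under 0.05), and these comparisons share the FCH libraries with FCH against FFA. Against FCM, the signal recognition particle RNA copy (Metazoa_SRP ENSG00000237611) was higher in FCH by 2.44 on the log2 scale (adjusted p = 2.01e-05), and ADAM10, a membrane protease that sheds cell surface proteins, by 1.27 (SE 0.18, adjusted p = 0.0216). ADAM10 did not pass against FFA (0.11, adjusted p = 0.828). Against FCL, the signal recognition particle RNA copy was higher by 2.44 (adjusted p = 2.01e-05) and ENSG00000268790 by 2.50 (adjusted p = 0.0116). The RNA copy met the filter through the FCH libraries alone and was at 0 in all others. Its values against FCM and FCL therefore repeat those against FFA and are no test of a dose difference. At an adjusted p of 0.0363 each, ENSG00000256364 (3.31), NR1H2 (0.86) and PTMS (0.77) were higher than in FCL. At the same adjusted p by limma, ENSG00000265401 (-3.05), H2BC20P (-2.05), ENSG00000290183 (-1.56), ENSG00000237550 (-0.90) and LINC00958 (-0.82) were lower. H2BC20P and ENSG00000290183 did not pass against FFA (-1.62 and -1.12, adjusted p = 0.0645 and 0.0896). Groups of 3 libraries were not screened for single outlying values.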

How the results depend on the processing

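For FCH against FFA, with 25 called genes, the count was 42 with a pseudocount of 0.1, 12 without a filter, 59 with a mean of at least 5 TPM, 72 with median-of-ratios scaling (40 higher, 32 lower), 96 with quantile normalization (56 higher, 40 lower), 3397 with array weights, 740 with FCH and FFA alone, 3 with the 12 fatty acid libraries, 16 without the variance trend, 4 with a term for libraries 12 to 15, 186 with the GC and length trend removed and 2 at a minimum log2 change of 0.5. It was 19 with the adjustment undone, all among the 25. Chosen after seeing the data, the undone values gave 56 without FCM replicate 3, 82 with FCH and FFA alone and 927 with array weights. Leaving out 1 library gave 2 to 171. The replicate block gave 16 calls, and same-numbered libraries shared only a number (correlations 0.036, -0.036 and -0.022). FCH against FCM gave 4 (pseudocount), 7 (no filter), 86 (median-of-ratios), 56 (quantile) and 1 to 75 (a library left out). FCH against FCL gave 5 (no filter), 58, 54, 2 (replicate block) and 1 to 23. FCH against NC gave 1075, 1247 and 281 to 485, and FFA against NC 1439 (quantile) and 427 to 979. The cause was not tested.

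The 25 called genes kept their direction in all 845 alternatives and lost the call in 276. Of 149 other named genes, 34 of 5035 alternatives changed sign. SREBF1 went to -0.03 (array weights, GC trend, undone with weights), -0.75 (term for libraries 12 to 15) and -0.05 (without FFA replicate 2 or FCH replicate 1), with a range of -0.05 to 0.14 over left-out libraries. FABP1 went to 0.03 (pseudocount, quantile), 0.01 (median-of-ratios, and undone alone, without FCM replicate 3 or in FCH and FFA alone), 0.12 (array weights, GC trend, undone with weights), 0.38 without FFA replicate 3 and 0.07 without FCH replicate 2 (range -0.36 to 0.38). NR1I3 went to 0.03 without FFA replicate 1 (range -0.45 to 0.03). With the term for libraries 12 to 15, GADD45B went to -0.04, SMAD7 to -0.27, FGF21 to 0.28, COL1A1 to -0.12, RRAGC to 0.25, RPL5 to 0.32, APOC1 to 0.90, SIRT3 to -0.08, BTF3 to 0.10, AKR1C2 to 0.13, APOA2 to 0.05, PEX19 to -0.16, FABP5 to 0.21, ANGPTL4 to -0.38, BNIP3 to 0.05 and IFITM2 to -0.04. TPM carries no depth, which limits what low genes can show.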
